A study of Mus musculus with 6 samples.

Results

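The 34 genes described here mark cells that copy their DNA or divide, and they were taken from the count table by their symbols, all 34 of which were found among its 27998 genes. They comprise 11 genes of the DNA synthesis phase (S members), 22 genes of the phases from late replication to cell division (G2M members), and Stmn1, a microtubule destabiliser that was placed in neither set. The assay was droplet RNA sequencing of single lung cells, in which a unique molecular identifier (UMI) lets each captured RNA molecule count once. The labels name 6 samples of mice carrying SMA-GFP;Tbx4cre;RosaTdTomato, which combine a green reporter for smooth muscle actin with a red tdTomato (Tm) reporter switched on by Cre from Tbx4, a gene of lung mesenchyme. Cells without Epcam, CD31 and CD45, surface antigens of epithelium, endothelium and leukocytes, were sorted by the 2 reporters. The d21 samples (SMA+Tm+, SMA-Tm+, SMA-Tm-) come from mice treated with bleomycin, an agent that causes lung injury and scarring, and the d0 samples of the same gates come from normal mice. Each gate and day has 1 sample, and the number of animals behind a sample is not stated in the labels.

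The table holds the cells of all samples together in 10410 barcodes, whose suffixes from 1 to 6 are tied to no label, so no gate or day was given to any of them. It was treated as 1 pooled sample, d21 and d0 were not compared, and every interval given here is an exact 95% interval that covers counting error only, with no p-value. After cells with fewer than 500 genes or more than 10% mitochondrial UMIs and 75 called doublets were left out, 9919 cells with a median of 2699 UMIs and 1214 genes remained. The 6 suffixes held from 2778071 to 12427810 UMIs, and their median depth ran from 1783.5 to 3633.5 UMIs per cell. Among the kept cells 94 barcode sequences occurred under more than 1 suffix, and 3 of the cells with 4 or more members shared theirs with another kept cell. The cells did not keep to the labelled sort: by lineage markers 29.4% of them were mesenchymal-like, 15.9% B cell-like, 12.2% alveolar macrophage-like, 9.93% T cell-like, 6.70% endothelial-like and 5.67% monocyte-like. A cell was given a class when at least 3 markers of 1 list were detected with a lead of at least 2 over every other list, no cell cycle gene was on these lists, and 12.5% of cells stayed unassigned.

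In S phase the hexameric Mcm helicase opens DNA, the sliding clamp Pcna tethers the polymerases, and ribonucleotide reductase (Rrm1, Rrm2), thymidylate synthase (Tyms) and thymidine kinase (Tk1) supply the nucleotides. Genes of this phase are known to be switched on by E2F factors. The genes for cyclins B and A, the mitotic kinases, the spindle motors and the centromere proteins follow later, under the B-Myb, FoxM1 and DREAM complexes, which are known to act through a promoter element called the cell cycle genes homology region (CHR) and through CCAAT boxes. In adult lung, alveolar macrophages and lymphocytes are known to renew by division, whereas most resident fibroblasts are quiescent.

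The promoters of the members differed by set in these letters. Promoter sequence from RefSeq (GRCm38.p6, 250 bases before to 50 bases after the start, in the direction of the gene) was matched by symbol for 28 of the 34 members, and Ccna2, Aurkb, Stmn1, Pbk, Gins2 and Tpx2 had no entry. The CHR letters TTTGAA, searched on both strands, stood in 13 of 18 G2M promoters (72.2%) and 1 of 11 S promoters (9.09%; Uhrf1 has 2 promoters), against 17.9% of all 32851 promoters. They lay from 60 bases before to 40 bases after the start in 12 of the 18 G2M promoters, against 5.32% of all promoters. The E2F core was searched on both strands in 3 spellings. These were TTCCCGC, found in the promoter of Rrm1, then TTGGCGC, found in that of Mcm6 and Mcm3, and also TTCGCGC, found in that of Mcm5. At least 1 of the 3 stood in 6 of 11 S promoters (54.5%) and 4 of 18 G2M promoters (22.2%), against 8.07% of all. CCAAT, also on both strands, stood in 9 of 11 S promoters and 16 of 18 G2M promoters, against 37.4% of all. These matches are descriptions of the letters, and no binding was measured.

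Printed here are the promoters of the G2M members Cenpa and Ube2c, the pair whose levels were most correlated in single cells, and of Top2a, with the CHR letters of either strand in capitals. They lie at chr5:30666636-30666935 on the plus strand, chr2:164769679-164769978 on the plus strand and chr11:99024140-99024439 on the minus strand of GRCm38.p6.
Cenpa: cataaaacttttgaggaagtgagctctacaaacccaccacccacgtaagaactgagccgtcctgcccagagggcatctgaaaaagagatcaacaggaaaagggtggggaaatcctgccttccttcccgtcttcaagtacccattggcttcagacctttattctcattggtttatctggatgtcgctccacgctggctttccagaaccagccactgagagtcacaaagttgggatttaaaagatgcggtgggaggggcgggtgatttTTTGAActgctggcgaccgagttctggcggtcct
Ube2c: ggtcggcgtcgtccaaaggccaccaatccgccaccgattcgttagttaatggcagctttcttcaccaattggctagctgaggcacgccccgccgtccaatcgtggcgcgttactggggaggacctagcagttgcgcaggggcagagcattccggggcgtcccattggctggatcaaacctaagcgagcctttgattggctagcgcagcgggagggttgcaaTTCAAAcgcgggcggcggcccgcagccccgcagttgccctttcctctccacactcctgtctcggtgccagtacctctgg
Top2a: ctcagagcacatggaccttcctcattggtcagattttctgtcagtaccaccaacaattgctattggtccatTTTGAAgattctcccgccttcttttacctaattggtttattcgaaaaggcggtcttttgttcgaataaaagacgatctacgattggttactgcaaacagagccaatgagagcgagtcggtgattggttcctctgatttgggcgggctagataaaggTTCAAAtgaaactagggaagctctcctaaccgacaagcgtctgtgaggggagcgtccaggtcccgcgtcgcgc

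Beside them stand the promoters of the S members Mcm6, Mcm3 and Mcm5, subunits of the replicative helicase, with the E2F core letters of either strand in capitals. They lie at chr1:128359656-128359955 on the minus strand, chr1:20820263-20820562 on the minus strand and chr8:75109259-75109558 on the plus strand of GRCm38.p6. Matches that overlap, such as TTGGCGC with GCGCGAA in Mcm6, form 1 run of capitals.
Mcm6: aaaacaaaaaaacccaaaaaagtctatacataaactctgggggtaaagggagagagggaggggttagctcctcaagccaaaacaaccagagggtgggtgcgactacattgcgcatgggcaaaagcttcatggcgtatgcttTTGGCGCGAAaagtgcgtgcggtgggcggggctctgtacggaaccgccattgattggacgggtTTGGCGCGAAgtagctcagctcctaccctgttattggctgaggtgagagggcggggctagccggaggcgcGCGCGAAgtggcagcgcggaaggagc
Mcm3: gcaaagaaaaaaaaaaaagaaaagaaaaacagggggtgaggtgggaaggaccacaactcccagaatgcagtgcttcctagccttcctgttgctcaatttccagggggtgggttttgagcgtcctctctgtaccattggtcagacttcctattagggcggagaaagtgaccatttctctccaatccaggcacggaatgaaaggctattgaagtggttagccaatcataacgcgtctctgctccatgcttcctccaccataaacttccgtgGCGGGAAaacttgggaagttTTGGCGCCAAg
Mcm5: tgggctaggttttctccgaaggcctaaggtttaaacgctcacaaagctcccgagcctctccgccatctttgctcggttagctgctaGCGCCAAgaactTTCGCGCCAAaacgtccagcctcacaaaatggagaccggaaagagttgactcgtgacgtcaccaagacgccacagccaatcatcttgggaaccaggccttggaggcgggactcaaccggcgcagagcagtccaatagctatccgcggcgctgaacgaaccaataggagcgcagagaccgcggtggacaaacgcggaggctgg

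The CHR match nearest the start began 16 bases after it in Cenpa, and at -29 and -23 (bases before the start) in Ube2c and Top2a. In Mcm6 the E2F core matches began at -109, -106, -46, -43 and 24, and in Mcm3 at 19, 39 and 42.

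The members gave 14296 UMIs, which is 0.0418% of all UMIs of the kept cells. No member was detected in 5819 cells (58.7%), 1 in 2907 cells (29.3%), and 2 to 3 in 929 cells (9.37%). Beyond these, 86 cells held 4 to 5 members, 25 held 6 to 7, 82 held 8 to 15, and 71 held 16 or more. The 264 cells with 4 or more members, 2.66% of all (interval 2.354 to 2.998%), carried 59.5% of the member UMIs. Next to this threshold 183 cells held 3 members and 56 held 4. Depth moved with the count: the median was 6478 UMIs in cells with 4 or more members and 2648 in other cells. With every cell reduced to 1500 randomly drawn UMIs, and 1726 shallower cells left out, 133 of 8193 cells (1.62%, interval 1.36 to 1.92%) held 4 or more.

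Each member was set against the other 33 to see which ones mark the same cells. Mki67, whose protein coats mitotic chromosomes (ENSMUSG00000031004, chromosome 7, 135689784 to 135716361, minus strand), was detected in 58.3% of the 259 cells with at least 4 other members and in 0.377% of the 5841 cells with no other member. Top2a, the topoisomerase that untangles sister chromatids (ENSMUSG00000020914, chromosome 11, 98992943 to 99024189, minus strand), was detected in 48.3% of cells with at least 4 others and 0.598% of cells with none. Birc5 (survivin, of the chromosomal passenger complex) stood at 46.9% and 0.308%, and Ccnb2, a cyclin B, at 46.3% and 0.581%, in the same groups of cells. All of these were found at low rates where no other member was seen.

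Read from the other side, the share of a gene's positive cells that held at least 4 other members separated the set. Of 33 cells with the checkpoint kinase Bub1, 97.0% held at least 4 others, of 73 cells with the spindle protein Hmmr 94.5%, of 94 cells with Ccna2 (cyclin A) 93.6%, and of 55 cells with the mitotic kinase Pbk 92.7%. Between 73.3 and 81.7% of positive cells did so for Kif11 (a spindle motor), Nusap1 (a spindle protein), Ccnb1, Cdk1 (the mitotic kinase that cyclin B activates), Plk1, Mki67, Rrm2, Birc5 and Cenpe (a kinetochore motor). Ccnb2, Uhrf1 (which carries DNA methylation through replication), Ube2c (of the cyclin-degrading machinery), Cenpf, Tpx2, Top2a, Tk1 and Aurka stood between 56.9 and 67.0%, and Kif23, Cdc20 and Aurkb between 46.7 and 49.0%. The other S members stood lower, with 32.6% for Mcm5, 54 of 180 cells for Mcm2, 27.7% for Rrm1, 27.6% for Gins2, 24.0% for Tyms, 18.7% for Mcm6 and 17.4% for Mcm3. Cenpa, the histone variant of centromeres, was the exception among G2M members with 15.9% (interval 13.4 to 18.6%) of 812 cells. Stmn1 had 13.05% of 1410 cells and Pcna 10.6% of 1040 cells, the lowest value of the set. Cells with none of the other members still held Cenpa in 6.40%, Pcna in 8.48% and Stmn1 in 12.6%. The set holds 22 G2M and 11 S members, so a G2M member has more others of its own phase. What part this has in the order was not tested.

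**Figure D1:**
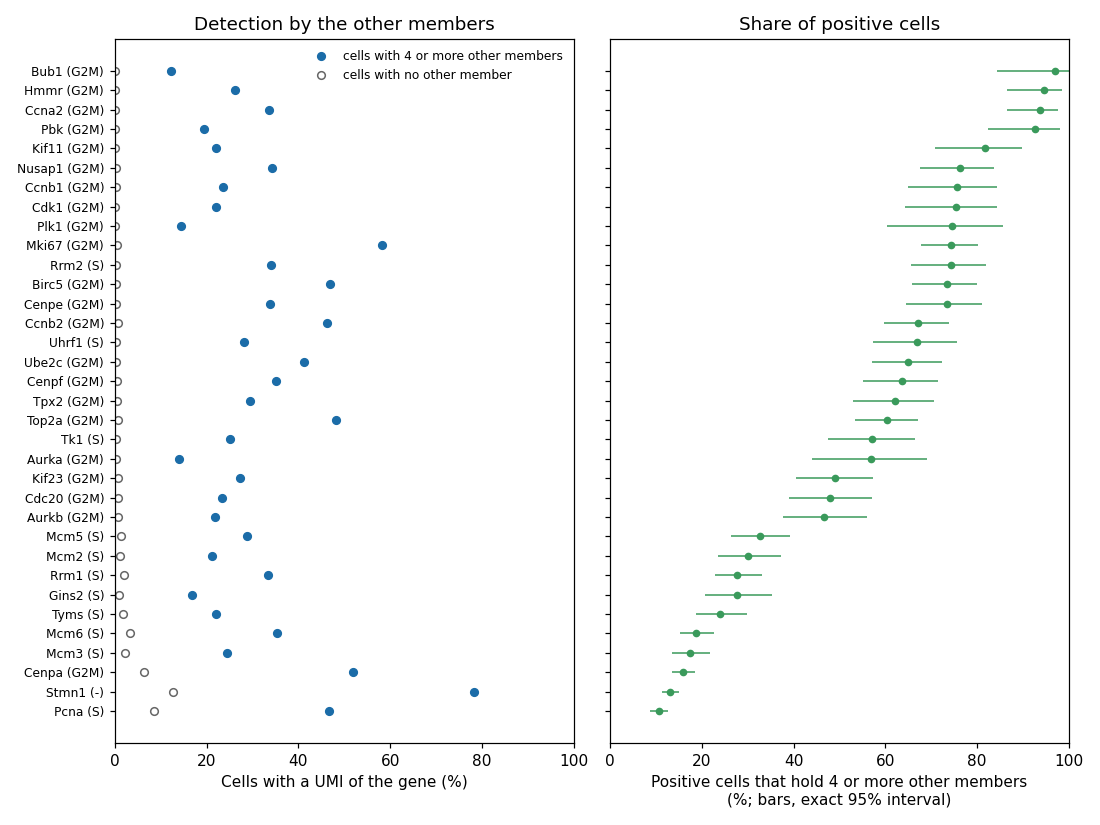
Left, the percent of cells with a UMI of each member in cells with 4 or more other members (filled) and in cells with no other member (open); right, the percent of each member's positive cells that hold 4 or more other members, with exact 95% intervals. Bub1, Hmmr, Ccna2 and Pbk lie at 92.7 to 97.0% on the right, while Cenpa, Stmn1 and Pcna lie at 10.6 to 15.9%.

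Some members share genome positions with other genes, and no label states whether the authors counted by strand. In the GENCODE annotation of GRCm38, protein-coding genes on the opposite strand overlap Ccna2 (Exosc9), Ube2c (Tnnc2), Nusap1 (Oip5), Cdc20 (Elovl1), Gins2 (Gse1) and Tk1 (Afmid), so the values of these 6 carry that uncertainty.

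Cells with 4 or more members were found in leukocyte classes more than in the mesenchymal class the sort aimed at. Alveolar macrophage-like cells held 60 of them in 1208 (4.97%, interval 3.81 to 6.35%), T cell-like cells 44 in 985 (4.47%, 3.26 to 5.95%) and B cell-like cells 30 in 1577 (1.90%, 1.29 to 2.70%). Mesenchymal-like cells held 10 in 2913 (0.343%, 0.165 to 0.630%), and this interval overlapped none of those 3. These shares pool the suffixes, which differ in the classes they hold. Endothelial-like cells held 8 in 665 (1.20%, 0.521 to 2.36%), which overlapped the mesenchymal interval. Monocyte-like cells held 16 in 562 (2.85%, 1.64 to 4.58%) and NK cell-like cells 11 in 255 (4.31%, 2.17 to 7.59%). The 9 interstitial macrophage-like cells among 170 (5.29%) bring all macrophage-like cells to 69 in 1378 (5.01%, 3.92 to 6.29%).

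Depth bears on these shares, and thinning to 1500 UMIs moved the classes differently. The thinned shares were 3.12% in alveolar macrophage-like, 2.73% in T cell-like, 3.76% in NK cell-like, 1.995% in B cell-like, 0.951% in monocyte-like, 0.243% in endothelial-like and 0.162% in mesenchymal-like cells. No interstitial macrophage-like cell of 164 held 4 or more members after thinning, with an exact interval of up to 2.22% (a limit of 3 counts would be 1.83%). The thinned intervals of alveolar macrophage-like (2.18 to 4.31%), T cell-like (1.78 to 4.01%) and B cell-like cells (1.28 to 2.95%) overlapped each other, and none overlapped the mesenchymal interval of 0.0442 to 0.415%. At full depth, median UMIs in cells with 4 or more members and in other cells were 6086 and 4750.5 in the alveolar macrophage-like class, 5943 and 2985 in the T cell-like class, 6617 and 2019 in the B cell-like class, and 10385 and 1749 in the endothelial-like class.

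**Figure D2:**
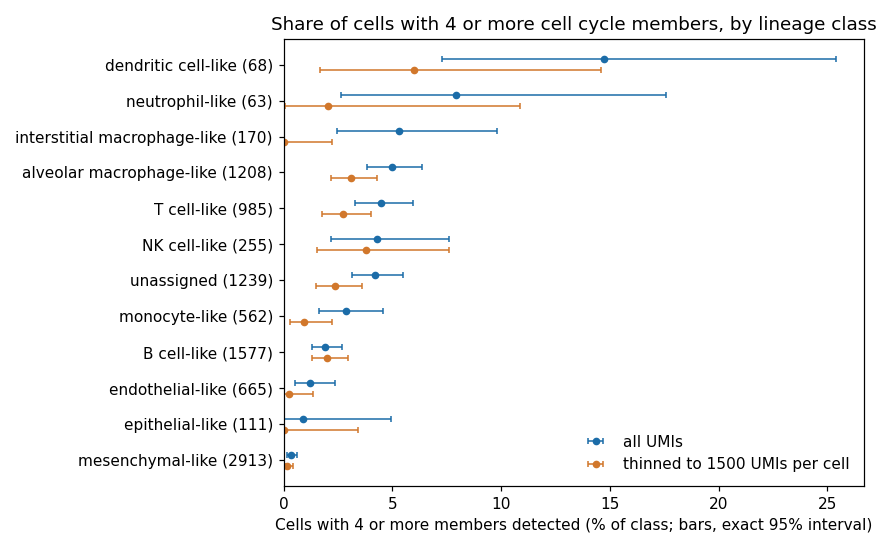
Percent of cells with 4 or more members in each lineage class of at least 50 cells (number of cells in brackets), with all UMIs (blue) and after thinning to 1500 UMIs per cell (orange); bars are exact 95% intervals. The mesenchymal-like class sits lowest with all UMIs at 0.343% and at 0.162% after thinning, when the interstitial macrophage-like value, 5.29% with all UMIs, is 0 of 164 cells and the epithelial-like value 0 of 106.

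Small classes held few such cells, and their identities varied in firmness. Dendritic cell-like cells held 10 in 68 (14.7%, interval 7.28 to 25.4%), and 4 in 67 after thinning (1.65 to 14.6%). Neutrophil-like cells held 5 in 63, epithelial-like cells 1 in 111, basophil-like cells 1 in 32 and plasma cell-like cells 1 in 15. The 5 neutrophil-like cells had a median of 12773 UMIs, against 2231.5 in the other cells of that class. Clustered without cell cycle genes, only those with 5815 and 7274 UMIs lay in the cluster that was 90.8% neutrophil-like. The epithelial-like cell, with 23073 UMIs, lay outside the cluster that was 94.1% epithelial-like. All 10 dendritic cell-like cells with 4 or more members lay in a cluster without a majority class, whose largest assigned class made up 29.4% of it. Mesothelial-like cells held 0 in 47, with an exact interval of up to 7.55% (a limit of 3 counts would be 6.38%). Erythroid-like cells stood apart, with 6 of 7 cells (interval 42.1 to 99.6%) at 4 or more members, from 13 to 29 members each, and the same 6 of 7 after thinning. Of the 1239 unassigned cells 52 (4.20%) held 4 or more members. Among these 52, 32 had at least 3 markers on each of 2 lists, and 20 had 10000 or more UMIs. A further 1154 assigned cells lay exactly at the limit of 3 markers or a lead of 2, 33 of them with 4 or more members.

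The 10 mesenchymal-like cells are few enough to describe one by one. Of the 8 under suffix 4, 3 held 9, 10 and 12 G2M members with at most 1 S member, 4 held 2 to 6 S members with at most 1 G2M member, and the remaining cell held 2 G2M and 1 S member. The 2 under suffix 2 had 816 and 1598 UMIs, 7 G2M members each, and alveolar macrophage markers as their next list. Clustered without cell cycle genes, these 2 and the cells with 9 and 10 G2M members fell in clusters without a majority class. Over the 10 cells, alveolar macrophage and dendritic cell markers summed to 264 CPM each, against 58.8 and 72.1 in other mesenchymal-like cells. Neutrophil markers summed to 529 CPM (865) and mesenchymal markers to 11697 CPM (12796). What this means for their class was not tested. Among the 8 endothelial-like cells, 1 held 15 G2M members and no S member at 2688 UMIs, and the other 7 held 4 to 5 members at 7623 to 27670 UMIs. Markers of other classes moved with them: in these 8 cells T cell markers summed to 269 CPM (43.1 in the other endothelial-like cells), B cell markers to 327 CPM (132) and mesenchymal markers to 663 CPM (330), and endothelial markers to 9428 CPM (12994). All 7 T cell, all 8 B cell and 9 of 10 mesenchymal markers had a UMI there, and no NK cell marker did; their part in the result was not tested.

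The share also varied between the suffixes. Over suffixes 1 to 6, cells with 4 or more members made up 1.36, 2.47, 4.59, 1.10, 3.75 and 6.15% of all kept cells. Suffixes 1 and 4, the lowest, hold 706 and 2010 of the 2913 mesenchymal-like cells. Without suffix 4 mesenchymal-like cells held 2 in 903 (0.221%, interval 0.0268 to 0.798%). Within suffix 4 alveolar macrophage-like cells held 9 in 497 (1.81%), against 8 in 2010 (0.398%) for mesenchymal-like cells, and within suffix 1 they held 11 in 212 (5.19%), against 0 in 706. Alveolar macrophage-like shares were 6.44% under suffix 2, 13.8% under suffix 3 (9 in 65), 6.52% under suffix 5 and 4 in 17 cells under suffix 6. B cell-like cells with 4 or more members lay mostly under suffix 3 (17 in 556) and suffix 6 (8 in 225), against 2 in 391 under suffix 2 and 3 in 308 under suffix 5. T cell-like cells held 12 in 298 under suffix 2, 10 in 322 under suffix 5 and 13 in 147 under suffix 6. Under suffixes 1 and 4 B cell-like cells held 0 in 52 and 0 in 45, and T cell-like cells 1 in 44 and 1 in 42. Under suffix 2 mesenchymal-like cells held 2 in 71 (2.82%), above the 0.512% of B cell-like cells. Between mesenchymal-like and B cell-like cells, class and suffix therefore cannot be told apart in the pooled shares. T cell-like shares lay above the mesenchymal-like share under every suffix, but the intervals of these classes overlapped under every suffix. Under suffix 4 the T cell-like interval was 0.0603 to 12.6%, against 0.172 to 0.783% for mesenchymal-like cells. The part of suffix in the pooled T cell-like contrast was not tested. What the suffixes stand for is not known here, so these values cannot be given to a gate or a day.

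Member levels followed the suffixes likewise. In CPM, the UMIs of a gene scaled to 1000000 UMIs of the group, over suffixes 1 to 6, Mki67 stood at 20.6, 33.8, 29.996, 5.19, 11.1 and 39.9, and Ube2c at 3.70, 18.3, 38.9, 2.88, 10.6 and 64.05. For the S member Mcm6 the values were 11.7, 21.8, 15.9, 9.48, 24.3 and 29.0 CPM. Each was lowest under suffix 4 and highest under suffix 6, and Mcm6 spanned a narrower range than Ube2c. Pcna stood at 35.4, 41.4, 42.4, 30.1, 39.7 and 51.2 CPM.

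A B cell split and a T cell split, chosen after earlier values were seen, divided these cells further. B cell-like cells with Vpreb3, a gene of early and immature B cells, and no Fcer2a UMI held 22 of 700 cells (3.14%, interval 1.98 to 4.72%) with 4 or more members. Those with Fcer2a (CD23, of mature B cells) and no Vpreb3 UMI held 0 of 260, an interval of up to 1.41%, at a similar median depth of 2143.5 UMIs against 2017. In the T cell-like class, cells with Cd4 and no Cd8b1 UMI held 10 of 116 (8.62%, 4.21 to 15.3%) and cells with Cd8b1 and no Cd4 UMI held 10 of 357 (2.80%, 1.35 to 5.09%), and these intervals overlap. After thinning the T cell shares were 8 of 106 (7.55%, 3.31 to 14.3%) and 5 of 341 (1.47%, 0.478 to 3.39%), whose intervals also overlap. The thinned B cell shares were 18 of 570 (3.16%, 1.88 to 4.95%) and 0 of 196 (up to 1.86%), whose intervals nearly touch. Both splits pool the suffixes, between which the B cell-like shares differed, and the part of suffix in them was not tested.

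Summed over a class, G2M members stood above S members in alveolar macrophage-like, lymphocyte and monocyte-like cells, and below them in mesenchymal-like, endothelial-like and interstitial macrophage-like cells. The G2M and S sums were 292 and 179 CPM in alveolar macrophage-like, 279 and 167 in T cell-like, 427 and 138 in B cell-like, 547 and 268 in NK cell-like, and 142 and 68.7 in monocyte-like cells. They were 38.1 and 52.3 CPM in mesenchymal-like, 53.4 and 80.7 in endothelial-like and 75.9 and 141 in interstitial macrophage-like cells. The sums run over 22 G2M and 11 S members, so the sums of a class are not levels per gene. Mki67 gave 30.7 CPM in alveolar macrophage-like (interval 26.4 to 35.5), 23.1 in T cell-like (18.3 to 28.8), 20.6 in B cell-like (16.3 to 25.7) and 70.5 in NK cell-like cells, against 1.11 in endothelial-like and 2.22 in mesenchymal-like cells. Cdk1 had no UMI in the 2913 mesenchymal-like cells and 37 UMIs in the 1208 alveolar macrophage-like cells.

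Stmn1 and Tyms broke with this order. For Stmn1 the level was 327 CPM in the endothelial-like class and 309 CPM in NK cell-like cells, against 94.3 in B cell-like, 83.3 in T cell-like, 79.9 in mesenchymal-like and 39.9 in alveolar macrophage-like cells. Tyms reached 9.87 CPM in mesenchymal-like and 8.90 in endothelial-like cells, against 3.73 in alveolar macrophage-like and 3.91 in B cell-like cells. Pcna was detected at 66.0 CPM in alveolar macrophage-like and 18.1 CPM in mesenchymal-like cells.

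**Figure D3:**
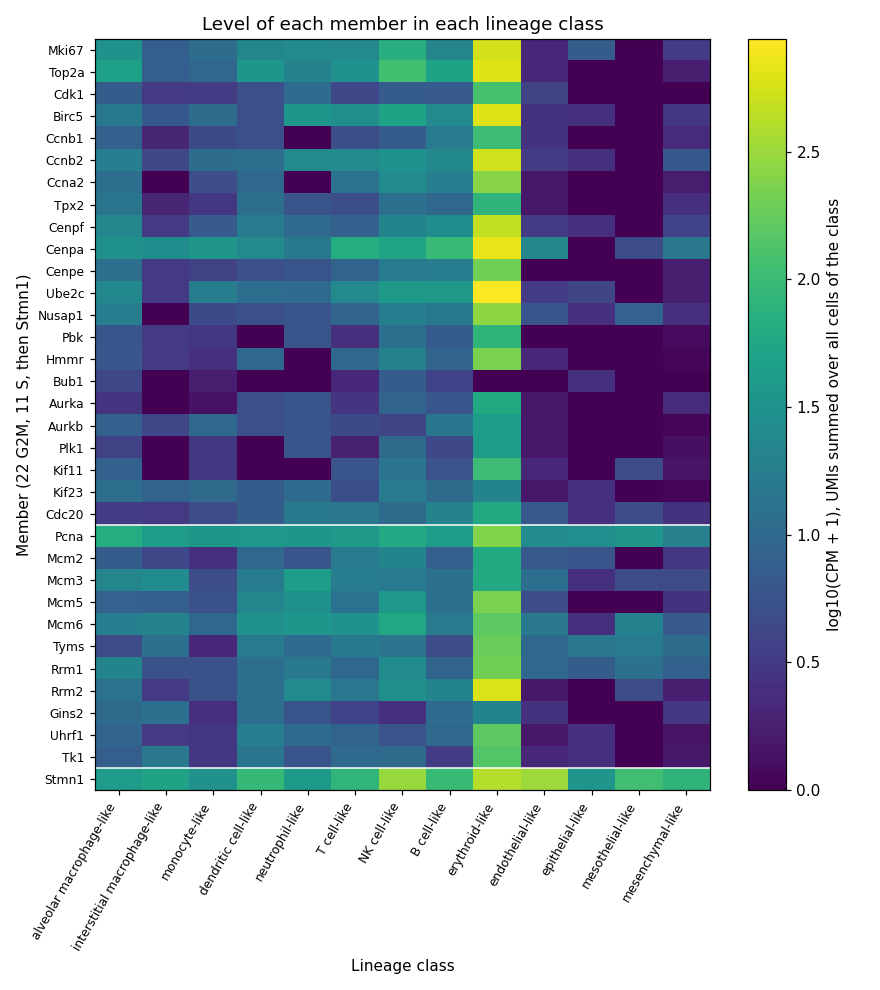
Level of each member (rows, with the 22 G2M members above the upper white line, then 11 S members and Stmn1) in 13 lineage classes (columns), as log10 of CPM plus 1 over all UMIs of the class. Rows are to be read across classes: the erythroid-like column rests on 7 cells, and Stmn1 is bright in the endothelial-like and NK cell-like columns, where it stands at 327 and 309 CPM.

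Within single cells S and G2M members were found together in some cells and apart in others. Of the 264 cells with 4 or more members, 134 (50.8%, interval 44.6 to 56.9%) held at least 2 of each set, 73 (27.7%) at least 2 G2M but fewer than 2 S members, and 57 (21.6%) at least 2 S but fewer than 2 G2M members. After thinning, 40 of 133 cells (30.1%) held both, 80 (60.2%) G2M and 13 (9.77%) S members alone in this sense. The limits of 2 and of 4 members are reached from 22 G2M but only 11 S members, which bears on these shares. In the classes with most such cells, both sets were found in 34 of 60 alveolar macrophage-like, 25 of 44 T cell-like and 15 of 30 B cell-like cells. At least 2 G2M but fewer than 2 S members were found in 15, 12 and 12 cells of these classes, of which 2, 7 and 8 held no S member at all. At least 2 S but fewer than 2 G2M members were found in 11, 7 and 3 cells, of which 5, 4 and 2 held no G2M member. None of the 10 mesenchymal-like (interval up to 30.85%) or 8 endothelial-like cells (up to 36.9%) held both sets, whereas all 6 erythroid-like cells did (54.1 to 100%). These cells differed in member count, with medians of 7.5, 4 and 19 members in the same order. A cell with 4 members, 1 of them Stmn1, cannot hold at least 2 of each set, which bears on this contrast.

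**Figure D4:**
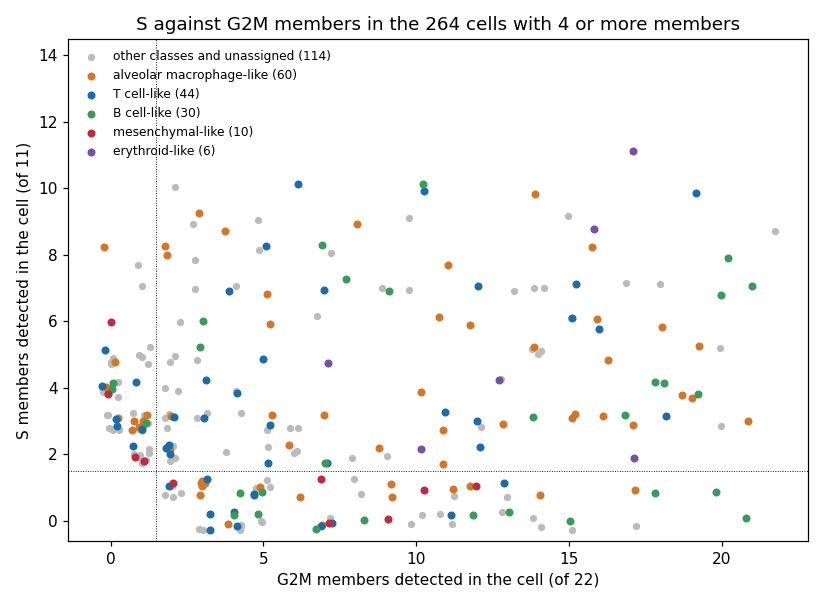
Number of S members (of 11, vertical) against G2M members (of 22, horizontal) detected in each of the 264 cells with 4 or more members, with points shifted slightly at random so that they do not hide each other; dotted lines mark the limit of 2 members. The upper right field holds 134 cells, no mesenchymal-like cell among them, and the 73 cells at lower right reach high G2M counts with 0 or 1 S member.

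Correlations across the 264 cells described the same structure. They were computed on log values scaled for depth, the cells had been chosen by how many members they held, and cells of all classes and depths entered, so they carry no p. The median Pearson r was 0.35 over the 231 pairs of G2M members, none of them below 0, and 0.24 over the 55 pairs of S members. Over the 242 pairs of a G2M with an S member it was 0.02, with 104 below 0. Cenpa and Ube2c had the highest r (0.63), followed by Mki67 and Cenpf (0.61), while Cenpa and Mcm6, whose promoters are printed above, had the lowest (-0.32). Rrm2, the regulated subunit of ribonucleotide reductase, was the S member in the highest of these mixed pairs, with r = 0.59 with Top2a and 0.48 with Nusap1. Stmn1 had a median r of 0.36 with G2M members and 0.09 with S members.

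Cell cycle genes outside the 34 were compared between cells with 4 or more members and the other cells of their class, in the 3 classes with at least 20 such cells. A gene was measured with at least 10 UMIs in both groups together, and called when the interval of its CPM ratio lay wholly beyond 2-fold. A gene that reached 10 UMIs only through the cells where it is high had to differ, so counts of measured genes are descriptions. In alveolar macrophage-like cells 39 of 42 measured G2M genes of the list outside the members and 26 of 33 S genes were higher, against 2.29% of all 10953 measured genes, with median log2 ratios of 4.60 and 2.69, against 0.10 for all genes outside the members. In B cell-like cells 34 of 39 G2M genes and 17 of 32 S genes were higher, against 3.21% of all genes (medians 4.66 and 2.57, against 0.15). In T cell-like cells 16 of 28 and 17 of 29 were higher, against 2.64% of all genes (medians 2.36 and 2.10, against 0.23). None of these other S or G2M genes was called lower, against 0.0639, 0.566 and 0.252% of all genes in alveolar macrophage-like, B cell-like and T cell-like cells. The own markers of the class moved too in B cell-like cells, where the 8 measured B cell markers summed to 3386 CPM in cells with 4 or more members and 7106 CPM in other cells, and their part in these results was not tested. Suffix 3 holds 17 of the 30 B cell-like cells with 4 or more members, and without it 28 rather than 51 of these other S and G2M genes were called there. After thinning to 1500 UMIs fewer genes were measured, and 25 of 46 rather than 65 of 75 were called in alveolar macrophage-like cells. The counts were 14 of 42 rather than 33 of 57 in T cell-like cells, and 25 of 50 rather than 51 of 71 in B cell-like cells. The share of all measured genes called was not counted after thinning or without suffix 3.

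Among the S genes, Clspn, a replication checkpoint adaptor, stood at 53.9 CPM in alveolar macrophage-like cells with 4 or more members and 1.09 CPM in the others (log2 ratio 5.63, interval 4.27 to 7.22), and at 76.1 and 1.60 CPM in the same groups of the T cell-like class. The T cell-like cells with 4 or more members also held 10 UMIs of Cdc6, a loader of the helicase, against 0 in the others. At the low end Ubr7 was called in none of the 3 classes.

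Among the G2M genes, Prc1, which bundles microtubules of the central spindle, stood at 218 CPM in alveolar macrophage-like cells with 4 or more members and 0.545 CPM in the others (log2 ratio 8.64, 7.05 to 10.9). Cdca3, a trigger of mitotic entry, stood at 185 and 0.727 CPM there, and at 107 and 0.639 CPM in T cell-like cells with 4 or more members and the others. In B cell-like cells it had 72 UMIs in the 30 cells with 4 or more members and 0 in the 1547 others, at least 427-fold higher against a limit of 3 counts in the others. Hn1 and Ctcf sat at the low end in alveolar macrophage-like and B cell-like cells: Hn1 stood at 477 and 268 CPM in alveolar macrophage-like cells and was not called in any of the 3 classes.

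All 8 measured histone genes were higher in each of the 3 classes. The shares of all measured genes were 2.29% in alveolar macrophage-like, 2.64% in T cell-like and 3.21% in B cell-like cells. The median log2 ratios of the histone genes were 3.98, 2.96 and 4.11 in the same order. Hist1h1b, a linker histone made in S phase, stood at 154 CPM in alveolar macrophage-like cells with 4 or more members and 0.182 CPM in the others, and at 138 and 0.958 CPM in those of the T cell-like class. H2afz, a histone variant also made outside S phase, stood at 2124 and 713 CPM in alveolar macrophage-like cells (log2 ratio 1.57, 1.46 to 1.68). Replication histones are near-identical copies, so how the authors' counting split reads between them is uncertain.

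Of the genes of cell cycle entry 2 of 15 measured were higher in alveolar macrophage-like, 4 of 13 in T cell-like and 4 of 14 in B cell-like cells, against 2.29, 2.64 and 3.21% of all measured genes of these classes, and none was lower. Ccne2, a cyclin E, stood at 66.7 CPM in alveolar macrophage-like cells with 4 or more members and 1.64 CPM in the others, and at 27.7 and 1.92 CPM in those of the T cell-like class. Foxm1, an activator of G2M genes, stood at 30.8 and 0.545 CPM in alveolar macrophage-like cells, and Mybl2, which encodes B-Myb, at 53.9 and 0.825 CPM in B cell-like cells. The cyclin D gene Ccnd2 was called in none of the 3 classes: it stood at 341 and 459 CPM in alveolar macrophage-like, 308 and 488 in T cell-like, and 142 and 121 in B cell-like cells. Myc stood at 9.80 CPM in B cell-like cells with 4 or more members and 34.1 CPM in the others, an uncalled ratio resting on 2 UMIs in those with 4 or more members.

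Of the genes that restrain the cycle 3 of 14 measured were higher and 0 lower in alveolar macrophage-like, 2 higher and 1 lower of 14 in T cell-like, and 1 higher and 1 lower of 12 in B cell-like cells. The shares of all measured genes in these classes were 2.29, 2.64 and 3.21% higher and 0.0639, 0.252 and 0.566% lower. Cdkn2c, an inhibitor of Cdk4 and Cdk6, was higher in all 3 classes, with 51.3 and 1.45 CPM in alveolar macrophage-like cells with 4 or more members and the others, 72.7 and 17.2 in T cell-like cells, and 240 and 20.4 in B cell-like cells. Btg1, an antiproliferative gene of resting lymphocytes, was lower in B cell-like cells with 4 or more members (1098 CPM, against 3382 in the others, log2 ratio -1.62, -1.82 to -1.43) and in T cell-like cells (761 CPM, against 2045, log2 ratio -1.43, -1.63 to -1.23). In alveolar macrophage-like cells it stood at 926 and 1012 CPM and was not called. The other called genes of this list were Cdkn2d and Rbl1 in alveolar macrophage-like cells and Cdkn2a in T cell-like cells, all higher in the cells with 4 or more members. Cdkn2a had 10 UMIs in all T cell-like cells together, which is the minimum for a measured gene.

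**Figure D5:**
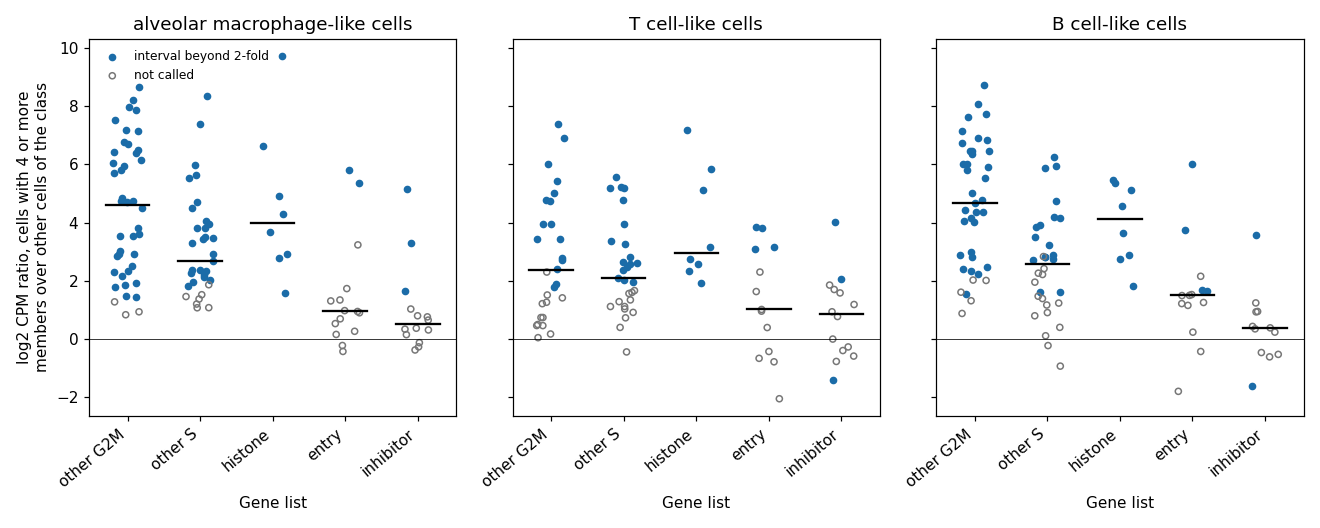
Log2 ratio of CPM in cells with 4 or more members over the other cells of the class, for each measured gene of 5 lists outside the members (points; filled where the interval lies wholly beyond 2-fold) with list medians (bars), in alveolar macrophage-like, T cell-like and B cell-like cells. G2M, S and histone genes sit mostly above 0, with G2M medians of 4.60, 2.36 and 4.66, and the filled points below 0 are Btg1.

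Levels of the entry and inhibitor genes over whole classes followed lineage. The cyclin D genes divided by class. Ccnd1 stood at 279 CPM in dendritic cell-like, 232 in epithelial-like, 195 in endothelial-like, 93.2 in interstitial macrophage-like and 92.9 in mesothelial-like cells. It stood at 13.4 CPM or less in alveolar macrophage-like, T cell-like, B cell-like, NK cell-like, monocyte-like and mesenchymal-like cells. Ccnd2 stood at 512 CPM in NK cell-like, 473 in T cell-like and 451 in alveolar macrophage-like cells. Ccnd3 stood at 549 CPM in the 7 erythroid-like cells, 365 in NK cell-like and 292 in monocyte-like cells. The inhibitor Cdkn1c stood at 105 CPM in mesenchymal-like, 63.2 in mesothelial-like, 28.4 in epithelial-like and 22.3 in endothelial-like cells. It stood at 3.80 or less in alveolar macrophage-like, T cell-like, B cell-like, NK cell-like and monocyte-like cells. Cdkn1a, the p53 target p21, stood at 518 CPM in endothelial-like, 467 in interstitial macrophage-like and 435 in mesothelial-like cells. It stood at 312 in alveolar macrophage-like and 281 in mesenchymal-like cells, against 5.85 in T cell-like and 10.7 in B cell-like cells.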

How the data were processed

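Single lung cells of 6 labelled samples were measured in 1 pooled table. The authors deposited raw UMI counts per gene and barcode with nothing normalized, and the submitters' processing notes name Cell Ranger 1.3.0, STAR 2.5.1 and the mm10 build; the step that called cells is not described in the labels. A deposited normalized table was not used.

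From the counts, cells with at least 500 genes and at most 10% mitochondrial UMIs were kept (318 and 105 of 10410 barcodes fell out) and doublets were called per suffix with Scrublet in scanpy 1.11.5, which marked 0.750%. Lineage lists hold 145 symbols, of which 139 are in the table; the class rule (3 markers, lead of 2) was set after preliminary counts were seen. CPM are UMIs scaled to 1000000 UMIs of the group. Shares carry Clopper-Pearson, CPM Poisson and ratios conditional binomial 95% intervals (scipy 1.17.1), which cover counting error only; a zero is limited at 3 counts. The ratio code was tested on simulated data. The pooled cells form 1 sample, so nothing was tested between groups.

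The members and all lists were chosen with earlier results of these data known. Named genes are all members and, per list, up to 4 with the highest and up to 3 with the lowest ratio; some of these are not reported here, and others were named after their values were seen, as were lineage splits. Alternatives varied the member threshold, members, depth, filter, doublets, class rule and suffixes.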

Additional observations from a re-analysis of the deposited data

How the results depend on the processing

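The share of all cells with 4 or more members (2.66%) was 4.51% at 3 or more members, 2.10% at 5 or more, 2.15% without Stmn1 and Pcna, 1.62% after thinning to 1500 UMIs, 3.89% with at least 1000 genes and at most 5% mitochondrial UMIs, 2.35% without suffix 3 and 3.33% without suffix 4. The alveolar macrophage-like share (4.97%) was 8.36% at 3 or more members, 3.12% thinned and 7.17% without suffix 4, and the mesenchymal-like share (0.343%) 1.06% and 0.162% in the first pair of these settings and 0.221% (2 of 903) without suffix 4. Cells with both S and G2M members (50.8%) made up 29.98% at 3 or more members, 61.5% at 5 or more, 61.0% without Stmn1 and Pcna and 30.1% thinned. The 65 other cell cycle genes called in alveolar macrophage-like cells were 25 after thinning, which leaves fewer UMIs. The 33 in T cell-like cells were 14, and the 51 in B cell-like cells 25, or 28 without suffix 3. The share of all measured genes called in these settings was not counted. In 2 settings added after seeing the data, 8 or more members gave 1.54% of all cells, 3.31% of alveolar macrophage-like cells and 73.9% with both sets, and leaving out cells over 10000 UMIs gave 2.07% of all cells. Alveolar macrophage-like, T cell-like and B cell-like shares lay above the mesenchymal-like share in 17 of 17 settings. All of these settings pool suffixes, and under suffix 2 alone the B cell-like share (0.512%) was below the mesenchymal-like share (2.82%). The T cell-like interval overlapped the mesenchymal-like interval within every suffix. The mesenchymal-like share was the lowest of 7 classes in 15 settings. The exceptions were 8 or more members and the setting without Stmn1 and Pcna, where the endothelial-like share was 0.150%. No paired analysis was possible because the pooled columns carry no replicate number and each gate and day has 1 sample. Depth limits detection most where cells are shallow: 254 of 665 endothelial-like and 374 of 1577 B cell-like cells held under 1500 UMIs.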
